A study of Mus musculus with 12 samples.

Results

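The genes described are 38 mouse genes of glycolysis and of the hypoxia response, chosen as a fixed list of symbols and matched to Ensembl identifiers; all 38 had an identifier among the 37991 in the count tables, and all 38 were among the 15098 genes that passed a filter on low counts. They fall into 22 glycolysis genes (16 enzymes of the pathway and 6 genes of sugar and lactate transport and flux control) and 16 hypoxia genes. The 16 are 4 genes of the oxygen-sensing pathway (Hif1a, Epas1, Egln1 and Egln3, called sensor genes below for short) and 12 target genes outside glycolysis. Transcripts were counted in 12 libraries made from embryonic fibroblasts of the mouse, connective tissue cells grown from embryos, with 3 libraries in each of 4 genotype groups: wild type (WT), knockout of Ing1 (Ing1 KO), knockout of Gadd45a, and knockout of both genes (DKO). All groups were C57BL/6N cells from male embryos of stage E15.5, kept for 4 passages and taken undifferentiated at 80% confluency, and no treatment is named in the labels. Ing1 encodes a chromatin reader and Gadd45a a stress-induced protein, and mice lacking either gene were crossed to obtain the combination. Whether a group's libraries stem from separate embryos is not labelled, so p-values measure the spread between libraries, which may be technical.

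Glycolysis splits glucose into pyruvate in the cytosol, and lactate dehydrogenase then turns pyruvate into lactate, which leaves the cell through monocarboxylate transporters. When oxygen is scarce, prolyl hydroxylases of the Egln family stop marking the alpha subunits of hypoxia-inducible factor (HIF) for destruction, and HIF switches on most glycolytic enzymes, the glucose transporter, and genes for blood vessel growth, mitophagy and feedback on HIF itself. Fibroblasts in culture use glycolysis heavily, and HIF is controlled mainly through the stability of its protein, which RNA counts do not measure.

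The libraries held between 31493168 and 42852059 counts in genes, of which the 38 genes took 0.78% to 1.17%. Ing1 stood at 52.3 ± 2 CPM (gene counts scaled to library size, with TMM factors) in the WT and at 1.22 ± 0.2 and 1.12 ± 0.19 CPM in Ing1 KO and the labelled DKO (SD, n = 3). Gadd45a was higher in the libraries labelled as lacking it, at 100 ± 22 and 126 ± 6.3 CPM where the WT had 21.1 ± 0.2 CPM. Which part of Gadd45a was deleted is not stated in the labels. Both groups are called by their labels, which every direction reported for them depends on. The 10 fibroblast markers summed to between 58800 and 72000 CPM in every library. Of them 3 rose and 4 fell in Ing1 KO, with Dcn 2.95-fold lower and Fn1 1.37-fold higher, and 2 fell in the labelled DKO, with Dcn 2.4-fold lower (edgeR adjusted p under 0.05). Skeletal muscle markers summed to 87 to 136 CPM in Ing1 KO, 66.4 to 105 in the labelled DKO, 61.8 to 64.2 in the WT and 54.4 to 71.7 in the labelled Gadd45a knockout. Of the 5 tested, 1 rose and 1 fell in Ing1 KO, with Acta1 2.38-fold higher and Actn3 1.9-fold lower. The same genes moved in the labelled DKO, with Acta1 1.48-fold higher and Actn3 1.57-fold lower (edgeR adjusted p under 0.05). Neuron and glia markers summed to 147 to 188 CPM in the labelled DKO and 110 to 146 in the other 9 libraries, and endothelial markers to 5.85 to 6.93 and 3.72 to 5.48. Of 7 neuron and glia markers tested in the labelled DKO against the WT, Tubb3 rose (151 ± 19 beside 97 ± 5.9 CPM) and S100b fell 3.32-fold. Their median log2 fold change was -0.14. Of 5 endothelial markers tested there, 2 rose, with Pecam1 5.41-fold higher, and 1 fell, Tek, 4.79-fold (edgeR adjusted p under 0.05). Epithelial markers summed to 8.37 to 12.9 CPM in Ing1 KO, 8.4 to 10.5 in the labelled DKO and 5.38 to 7.74 in the other groups. Their part in the results below was not tested.

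HIF binds the letters ACGTG or GCGTG in promoters. In promoter windows of RefSeq (build GRCm38.p6, 250 bases before to 50 after each start), 34 of the 38 genes matched by symbol, with 52 windows; Bnip3l, Epas1, Ndrg1 and Slc2a3 had none in the table. At least 1 of these cores, on either strand, was found in 40 of the 52 windows (76.9%) and in 14380 of all 32851 windows (43.8%). The windows of these genes were also richer in G and C, at 61.8% on average beside 53.8%. Counted by gene, 31 of 34 (91.2%) held a core in some window, beside 46.7% of all genes, and so did all 13 hypoxia genes with a window. The 34 genes had 52 windows and all 27025 genes had 32851, so the shares by gene rest on more windows per gene for the members. The letters CACGTG, which overlap the core and are also the site of MYC and related proteins, were in 9.62% of the members' windows and 7.15% of all.

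The 250 bases before the start are printed below for the 4 genes that rose most in the labelled DKO and for 4 genes with an interaction in the tests that follow, each 5′ to 3′ on the strand of the gene, with HIF cores in capitals. They are Egln3 (chr12:54203875-54204124, minus strand), Slc2a1 (chr4:119108495-119108744, plus), Bnip3 (chr7:138909507-138909756, minus), Slc16a3 (chr11:120948817-120949066, plus), Aldoc (chr11:78322823-78323072, plus), Pdk1 (chr2:71872974-71873223, plus), Pfkfb4 (chr9:108991652-108991901, plus) and Mxi1 (chr19:53329163-53329412, plus). Aldoc, Pdk1 and Mxi1 have further annotated starts, whose sequences are not printed. No core was found in the 250 bases before the other start of Pdk1 or in chr19:53310256-53310505 of Mxi1. The other window of Aldoc (chr11:78323948-78324197) and chr19:53329445-53329694 of Mxi1 held 1 match each.
Egln3: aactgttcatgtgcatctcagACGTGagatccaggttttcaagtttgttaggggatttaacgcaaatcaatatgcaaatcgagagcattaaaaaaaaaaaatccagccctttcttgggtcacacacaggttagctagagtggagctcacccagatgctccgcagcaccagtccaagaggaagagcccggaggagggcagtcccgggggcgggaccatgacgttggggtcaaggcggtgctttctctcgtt
Slc2a1: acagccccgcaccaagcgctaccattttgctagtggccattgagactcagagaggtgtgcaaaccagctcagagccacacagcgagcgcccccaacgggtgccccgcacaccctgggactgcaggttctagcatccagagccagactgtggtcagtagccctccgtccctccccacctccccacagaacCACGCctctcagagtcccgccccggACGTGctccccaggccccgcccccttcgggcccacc
Bnip3: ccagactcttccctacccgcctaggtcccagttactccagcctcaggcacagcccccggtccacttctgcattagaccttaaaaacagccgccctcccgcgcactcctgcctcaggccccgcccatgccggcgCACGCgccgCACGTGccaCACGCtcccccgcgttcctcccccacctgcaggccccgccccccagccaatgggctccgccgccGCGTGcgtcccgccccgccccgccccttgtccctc
Slc16a3: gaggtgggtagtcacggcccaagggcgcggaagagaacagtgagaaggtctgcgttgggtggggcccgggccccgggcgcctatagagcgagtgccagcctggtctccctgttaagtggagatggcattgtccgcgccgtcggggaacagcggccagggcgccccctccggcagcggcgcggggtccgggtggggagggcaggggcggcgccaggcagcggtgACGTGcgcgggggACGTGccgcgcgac
Aldoc: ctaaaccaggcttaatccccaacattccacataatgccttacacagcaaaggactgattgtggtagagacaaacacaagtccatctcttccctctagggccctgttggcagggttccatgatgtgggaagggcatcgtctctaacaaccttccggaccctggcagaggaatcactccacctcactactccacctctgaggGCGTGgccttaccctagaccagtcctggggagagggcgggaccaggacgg
Pdk1: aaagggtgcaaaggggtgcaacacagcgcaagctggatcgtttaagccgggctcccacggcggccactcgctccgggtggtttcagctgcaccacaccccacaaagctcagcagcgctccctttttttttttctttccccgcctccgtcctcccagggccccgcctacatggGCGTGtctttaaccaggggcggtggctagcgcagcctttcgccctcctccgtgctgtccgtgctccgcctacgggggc
Pfkfb4: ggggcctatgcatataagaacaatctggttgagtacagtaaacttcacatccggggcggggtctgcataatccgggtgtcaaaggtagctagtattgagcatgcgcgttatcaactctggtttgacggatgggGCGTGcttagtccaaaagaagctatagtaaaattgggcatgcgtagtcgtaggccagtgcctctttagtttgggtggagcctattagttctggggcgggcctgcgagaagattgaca
Mxi1: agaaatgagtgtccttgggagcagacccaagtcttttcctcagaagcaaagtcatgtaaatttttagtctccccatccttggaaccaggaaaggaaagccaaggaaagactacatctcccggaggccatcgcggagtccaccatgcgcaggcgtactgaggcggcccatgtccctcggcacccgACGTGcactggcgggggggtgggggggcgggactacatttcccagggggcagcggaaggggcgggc

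The core lay far from the start in Egln3, 229 bases before it, and close to it in Slc16a3, 27 and 14 bases before it. Slc2a1 held cores 61 and 36 bases before its start, and Pfkfb4 a single core 117 bases before it. Bnip3 held 5 matches, and 2 of them overlap in a CACGTG. Aldoc and Pdk1 also have matches at or after the start that are not printed. These matches are a description of letters and show neither binding nor its absence.

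In the WT the last steps of glycolysis and aldolase were the most abundant of these transcripts. Per kilobase of exon (lengths from GENCODE M21, another build than that of the counts), Pkm, the pyruvate kinase gene, stood at 357 ± 6.1 CPM per kb, Aldoa at 291 ± 5.1, Ldha at 283 ± 7.6 and Tpi1 at 177 ± 6.2 (SD, n = 3). The next were P4ha1, a collagen prolyl hydroxylase gene and HIF target, at 143 ± 5 CPM per kb, and Pgk1 at 129 ± 12, which lay within their spread of each other. Aldoa and Ldha also lay within their spread of each other. Ddit4, an inhibitor of mTOR, stood at 101 ± 4.5 CPM per kb, and Hif1a at 66.7 ± 11, close to Eno1 (62.3 ± 1.1) and Slc2a1 (59.5 ± 11). The lowest were Aldoc (2.86 ± 0.25), Slc2a3 (2.34 ± 0.27) and Pfkfb4 (1.69 ± 0.1). Gapdh stood at only 13.5 ± 0.78 CPM per kb. Of the 51-base windows of its transcripts 25% are shared with other annotated genes. Reads aligned to several places were kept out of the gene counts, and whether this lowered the level of Gapdh was not tested. Sharing was also high for Pgk1 (53.8%), Bnip3 (46.6%), Pgam1 (36.1%), Eno1 (25.9%), Pkm (25.4%), Higd1a (24.3%), Bnip3l (20.6%), Ankrd37 (16.8%) and Gpi1 (15.6%). In Pkm, Higd1a and Gpi1 the gene that shares most windows overlaps them on the chromosome and is not among the counted genes. Reads from such stretches need not align to several places, so the effect of sharing on these counts is unknown. The counts of the others are uncertain. The library kit does not mark strand, so reads from stretches shared with a gene of the opposite strand cannot be assigned. Such stretches covered 349 of 1539 exon bases in Ankrd37 (with Lrp2bp), 748 of 13401 in Pfkp (with Pitrm1) and 419 of 6596 in Ndrg1 (with Gm17035), and 25 to 330 bases in Hk1, Aldoa, Tpi1, Gapdh, Slc2a1, Hif1a, Car9 and Mxi1. In Bnip3, Higd1a and Gpi1 the gene of the opposite strand is not among the counted genes. It covered 504 of 2265 exon bases in Bnip3 (Gm45507), 683 of 3040 in Higd1a (Gm47112) and 741 of 6452 in Gpi1 (Gm26762). Its part in their counts was not tested.

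**Figure D1:**
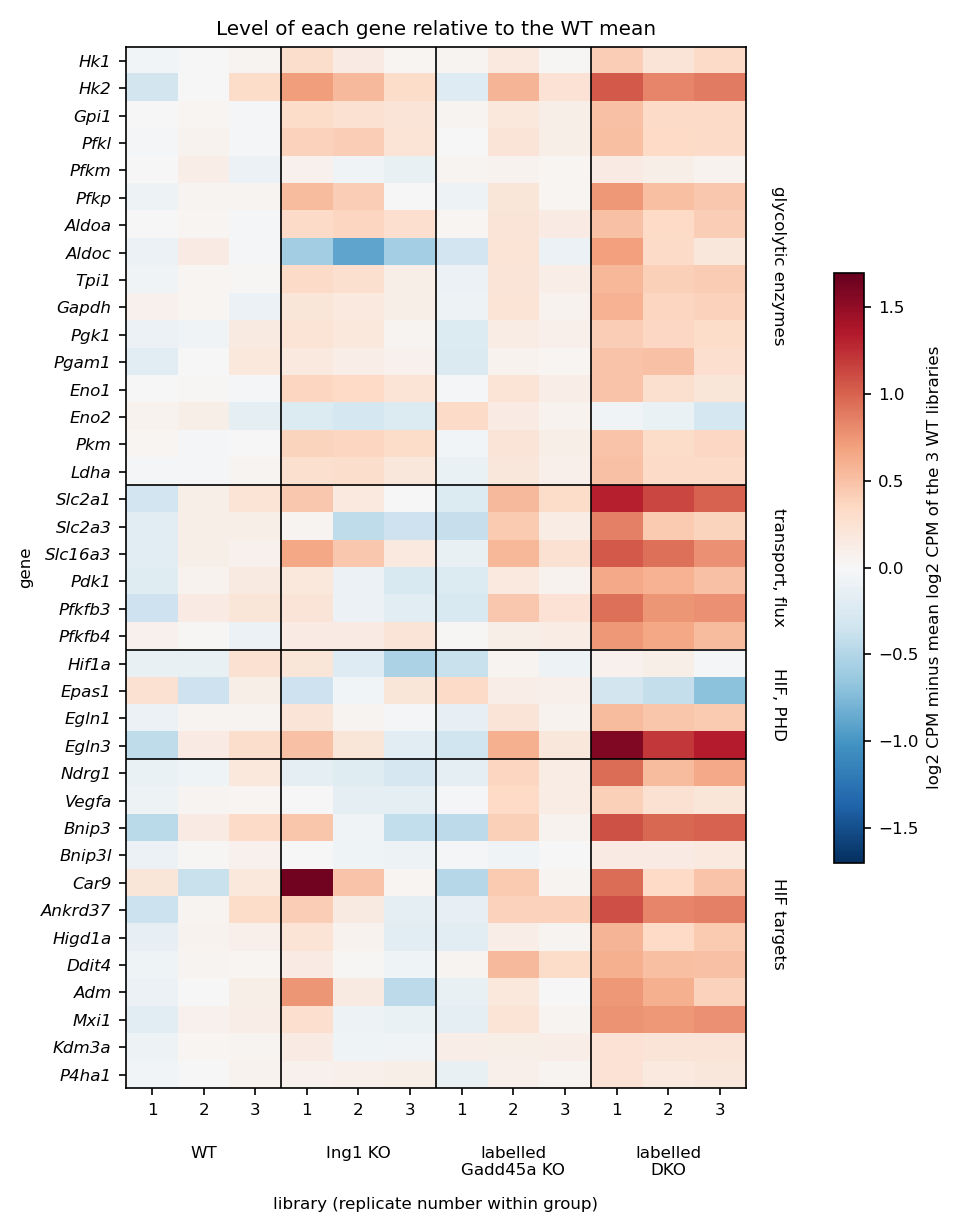
Level of each of the 38 genes in each of the 12 libraries, as log2 CPM minus the mean log2 CPM of the 3 WT libraries (colour; red is higher, blue lower), with libraries in columns by group and genes in rows by role. The 3 labelled DKO columns are red for most genes, the Ing1 KO columns are red for enzymes and mixed for HIF targets, and Aldoc is blue in all 3 Ing1 KO libraries.

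What loss of Ing1 alone goes with was asked by comparing Ing1 KO with the WT. Some enzymes of glycolysis rose, 2 fell, and none of the 12 listed HIF targets outside glycolysis was called. Of 16 enzymes 6 rose and 2 fell (edgeR adjusted p under 0.05), in a comparison in which 12.1% of all tested genes were called higher and 11.4% lower. The median log2 fold change of the enzymes was 0.24, beside -0.003 for all genes. None of the 6 transport and flux genes, the 4 sensor genes or the 12 HIF targets was called by edgeR or DESeq2 with all libraries, and at an unadjusted p under 0.05 edgeR had 1 (Slc16a3), 0 and 0. Pdk1, Pfkfb3 and Slc2a3 were each called lower under 1 of the 12 alternatives tried. Their lowest log2 fold changes over the alternatives were -0.27, -0.31 and -0.48. The medians of the transport and flux genes and the HIF targets were 0.06 and 0.03, and whether enzymes and targets differed from each other was not tested.

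Aldoa, which encodes the main aldolase, had 845, 865 and 836 CPM in the WT libraries and 1060, 1090 and 1030 CPM in Ing1 KO. The groups did not overlap, with a 1.25-fold rise (0.32 ± 0.05 in log2, SE, edgeR adjusted p = 0.00148). Pkm had 1820, 1760 and 1780 CPM in the WT and 2320, 2300 and 2220 CPM in Ing1 KO, which again left the groups apart, and rose 1.28-fold (0.35 ± 0.06 in log2, edgeR adjusted p = 0.00222). Pfkl, the phosphofructokinase gene best known from liver, went from 200, 215 and 202 CPM to 270, 275 and 241 CPM (log2 fold change 0.35 ± 0.07, edgeR adjusted p = 0.0034). Gpi1, which encodes the isomerase of the second step, rose 1.2-fold, from 275, 284 and 273 CPM to 343, 332 and 323 CPM (edgeR adjusted p = 0.00369). Eno1, the common enolase gene, rose 1.24-fold, from 334, 341 and 330 CPM to 430, 423 and 393 CPM (edgeR adjusted p = 0.00868). Ldha, the gene of the lactate dehydrogenase subunit of fibroblasts and muscle, rose 1.19-fold, from 927, 920 and 967 CPM to 1130, 1150 and 1070 CPM (edgeR adjusted p = 0.0193). In all of these the lowest Ing1 KO library was above the highest WT library.

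Both enzymes that fell are the isoforms known from brain. Aldoc fell 1.6-fold, from 8.66, 10.2 and 9.11 CPM in the WT to 6.2, 5.01 and 6.24 CPM in Ing1 KO (log2 fold change -0.68 ± 0.16, edgeR adjusted p = 0.00964). Eno2 fell 1.19-fold, from 26.7, 27.6 and 23.1 CPM to 21.9, 21 and 21.8 CPM (edgeR adjusted p = 0.042). Per kilobase of exon, the share of Aldoc in the summed aldolase level of Aldoa and Aldoc was 0.97% ± 0.069 in the WT and 0.489% ± 0.069 in Ing1 KO (SD, n = 3). That of Eno2 in the summed level of Eno1 and Eno2 was 8.09% ± 0.58 and 5.61% ± 0.31. The call of Aldoc was lost without Ing1 KO replicate 2 (adjusted p = 0.0511), that of Ldha without WT replicate 1 (0.0507), WT replicate 2 (0.0713) or Ing1 KO replicate 2 (0.0775), and that of Eno2 without WT replicate 1 or 2 or any Ing1 KO library (edgeR adjusted p up to 0.159). Without Ing1 KO replicate 2, 5 of the 22 glycolysis genes were called in place of 8.

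Hk2, Car9 and Adm were among the genes not called, and their levels varied between the Ing1 KO libraries. Hk2, the inducible hexokinase gene, lay above the WT in every Ing1 KO library, at 86.6, 77.3 and 65.9 CPM beside 42.5, 53.3 and 65.4 CPM (log2 fold change 0.51 ± 0.21, edgeR adjusted p = 0.116). Car9, which encodes a carbonic anhydrase of the cell surface and is among the strictest HIF targets, had 25.7, 11.5 and 8.37 CPM in Ing1 KO and 9.47, 6.31 and 9.26 CPM in the WT, with overlap between the groups. Adm, the gene of the vessel peptide adrenomedullin, had 61.4, 40.9 and 26.8 CPM in Ing1 KO. Of the 12 HIF targets, 11 were highest in Ing1 KO replicate 1 and 10 were lowest in replicate 3.

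The libraries labelled Gadd45a knockout were compared with the WT for loss of Gadd45a alone, and none of the 38 genes was called. EdgeR called 1 of 15098 genes here (0.00662%) and DESeq2 27, none of them a member, and at an unadjusted p under 0.05 edgeR had 2 members, Aldoa and Ddit4. With the replicate number as a block in a fit of these 2 groups alone, added after seeing the data, edgeR called 13 of 14689 genes and again none of the 38, of which 11 had an unadjusted p under 0.05 (lowest edgeR adjusted p = 0.189). Ddit4 had 183, 260 and 219 CPM beside 168, 182 and 181 CPM in the WT, without overlap (log2 fold change 0.32 ± 0.1, edgeR adjusted p = 0.493). Aldoa had 868, 989 and 935 CPM, all above the WT libraries (log2 fold change 0.13, edgeR adjusted p = 0.531). The median log2 fold change of the 38 genes was 0.08, beside 0.003 for all genes. Replicate 1 was the lowest of its group for 13 of 16 enzymes, all 6 transport and flux genes and 10 of 12 HIF targets. For Slc2a1, a glucose transporter gene, the 3 libraries had 176, 302 and 256 CPM beside 164, 221 and 241 CPM in the WT, and the interval of the log2 fold change ran from -0.26 to 0.72.

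The combined state was described by comparing the labelled DKO with the WT, and here genes of every role rose together. Of the 38 genes 30 rose and none fell (edgeR adjusted p under 0.05), where 15.6% of all tested genes were called higher and 10.3% lower. The count was 13 of 16 enzymes, 5 of 6 transport and flux genes, 2 of 4 sensor genes and 10 of 12 HIF targets. The median log2 fold change was 0.39 for the enzymes, 0.72 for transport and flux, 0.26 for the sensor genes and 0.56 for the HIF targets, beside 0.008 for all genes. Of the 30 calls 23 were kept under all 12 alternatives tried. Epas1 was the lowest of the 38, with an unadjusted p of 0.0211. DESeq2 called 20 glycolysis genes, all higher, and 13 hypoxia genes, 12 higher and 1 lower. With the 4 libraries numbered 1 left out together, an alternative added after the data were seen, edgeR called 17 glycolysis and 9 hypoxia genes in place of 18 and 12, and Pfkp was among those lost (edgeR adjusted p = 0.0607).

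Markers of another cell type and of proliferation moved with the same group. All 18 macrophage markers rose, with summed levels of 2310 to 2890 CPM in the labelled DKO beside 148 to 651 CPM in the other 9 libraries, and no marker was at 0 in any group. Among the most changed was Pf4, with 39.5 ± 7.6 CPM against a WT level of 4.69 ± 1.3 CPM (SD, n = 3). All 12 cell cycle genes rose too, with sums of 869 to 882 CPM beside 545 to 677 CPM. Their part in the rise of the glycolysis and hypoxia genes was not tested. In libraries made from whole cultures, more cells of a type and more RNA per cell cannot be told apart. Within the groups, Ing1 KO replicate 3 had the highest macrophage sum of the other 9 libraries (651 CPM) and the lowest mean of HIF targets in its group (-0.15 on the log2 scale, relative to the WT). Replicate 1 of the labelled Gadd45a knockout was lowest in its group in both (148 CPM and -0.14), as was WT replicate 1 (279 CPM and -0.13). In the labelled DKO replicate 1 was highest in both (2890 CPM and 0.65). The lowest there was replicate 3 for the markers (2310 CPM) and replicate 2 for the HIF targets (0.47).

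**Figure D2:**
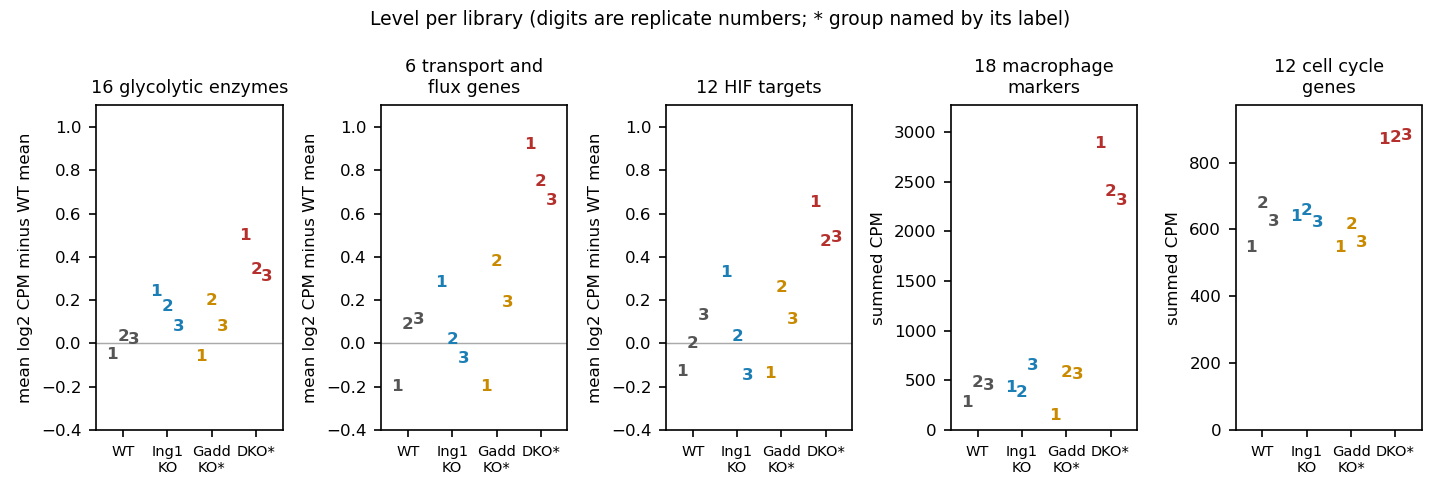
Mean log2 CPM minus the WT mean for the 16 enzymes, 6 transport and flux genes and 12 HIF targets, and summed CPM of 18 macrophage markers and 12 cell cycle genes, each digit 1 library (its replicate number) by group. In all 5 panels the 3 labelled DKO libraries lie above the other 9. Among the transport and flux genes the labelled Gadd45a KO libraries spread from -0.2 to 0.38.

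The step that carries glucose into the cell and traps it showed some of the largest changes in the labelled DKO. Slc2a1 (ENSMUSG00000028645) had 516, 451 and 413 CPM beside 164, 221 and 241 CPM in the WT, every library well above the highest WT library, with a 2.21-fold rise (1.14 ± 0.22 in log2, SE, edgeR adjusted p = 0.00496). Slc2a3, a high-affinity glucose transporter gene known from neurons, was higher in all 3 labelled DKO libraries but not called (25.1 ± 4.6 beside 16.9 ± 1.9 CPM, SD, n = 3; edgeR adjusted p = 0.0822). Hk2 rose 1.87-fold (100 ± 8.1 beside 53.7 ± 11 CPM, edgeR adjusted p = 0.0134), and Hk1, the constitutive hexokinase gene, 1.25-fold (134 ± 8.6 beside 107 ± 3.3 CPM, edgeR adjusted p = 0.00346). The share of Hk2 in the summed level of both, per kilobase, was 51.6% ± 0.62 in the labelled DKO and 41.5% ± 4.5 in the WT, with no overlap between the libraries.

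Flux control genes rose with it. Pfkfb3 and Pfkfb4 encode bifunctional enzymes that make the activator of phosphofructokinase. Pfkfb4 had 13.7, 13 and 12 CPM beside 8.69, 8.37 and 7.7 CPM in the WT, with no overlap, and rose 1.56-fold with the smallest adjusted p of the 38 genes (log2 fold change 0.64 ± 0.08, edgeR adjusted p = 0.00013). Pfkfb3 rose 1.74-fold, to 245 ± 17 CPM, and lost its call without WT replicate 1 (adjusted p = 0.0538) or DKO replicate 1 (edgeR adjusted p = 0.0625). Pdk1, a pyruvate dehydrogenase kinase gene, rose 1.48-fold (124 ± 6 beside 83.7 ± 10 CPM, edgeR adjusted p = 0.00998). Slc16a3, which exports lactate, rose 1.89-fold (234 ± 22 beside 124 ± 13 CPM, edgeR adjusted p = 0.00523).

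The called enzymes other than Hk2 rose by 1.25- to 1.49-fold, and Pfkm, Aldoc and Eno2 were not called. Aldoa had 1200, 1070 and 1130 CPM (1.34-fold, edgeR adjusted p = 0.000216), and Gpi1 392, 349 and 349 CPM (1.31-fold, edgeR adjusted p = 0.000267). Pkm had 2510, 2220 and 2270 CPM (1.31-fold, edgeR adjusted p = 0.000992) and Pfkl 293, 260 and 257 CPM (1.31-fold, edgeR adjusted p = 0.00126). For these 4 genes every labelled DKO library lay above every WT library. Tpi1, which interconverts the products of aldolase, had 719, 648 and 660 CPM beside 468, 501 and 494 CPM in the WT (1.39-fold, edgeR adjusted p = 0.00122). Ldha had 1330, 1170 and 1180 CPM (1.31-fold, edgeR adjusted p = 0.00166), and Gapdh 83.5, 71.7 and 72.9 CPM beside 58.4, 56.8 and 51.9 CPM in the WT (1.36-fold, edgeR adjusted p = 0.0017). Replicate 1 was the highest labelled DKO library for 15 of the 16 enzymes.

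The remaining enzymes were given by group. Pfkp, the platelet-type phosphofructokinase gene, rose 1.49-fold, Pgam1 1.33-fold, Pgk1 1.28-fold and Eno1 1.26-fold. Pgk1, whose product makes the first ATP of the pathway, lost its call without WT replicate 1 (adjusted p = 0.064), WT replicate 2 (0.0587) or DKO replicate 1 (edgeR adjusted p = 0.0592). The 3 enzymes that were not called were the muscle-type Pfkm (47.9 ± 1.5 beside 44.7 ± 3.3 CPM, log2 fold change 0.1, interval -0.03 to 0.23), Aldoc (12.5 ± 2.4 beside 9.33 ± 0.8 CPM, edgeR adjusted p = 0.0664) and Eno2 (23.1 ± 1.9 beside 25.8 ± 2.4 CPM, edgeR adjusted p = 0.194). Among phosphofructokinase genes the share of Pfkm, per kilobase, was 23.7% ± 0.85 in the labelled DKO and 27.8% ± 1.1 in the WT.

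**Figure D3:**
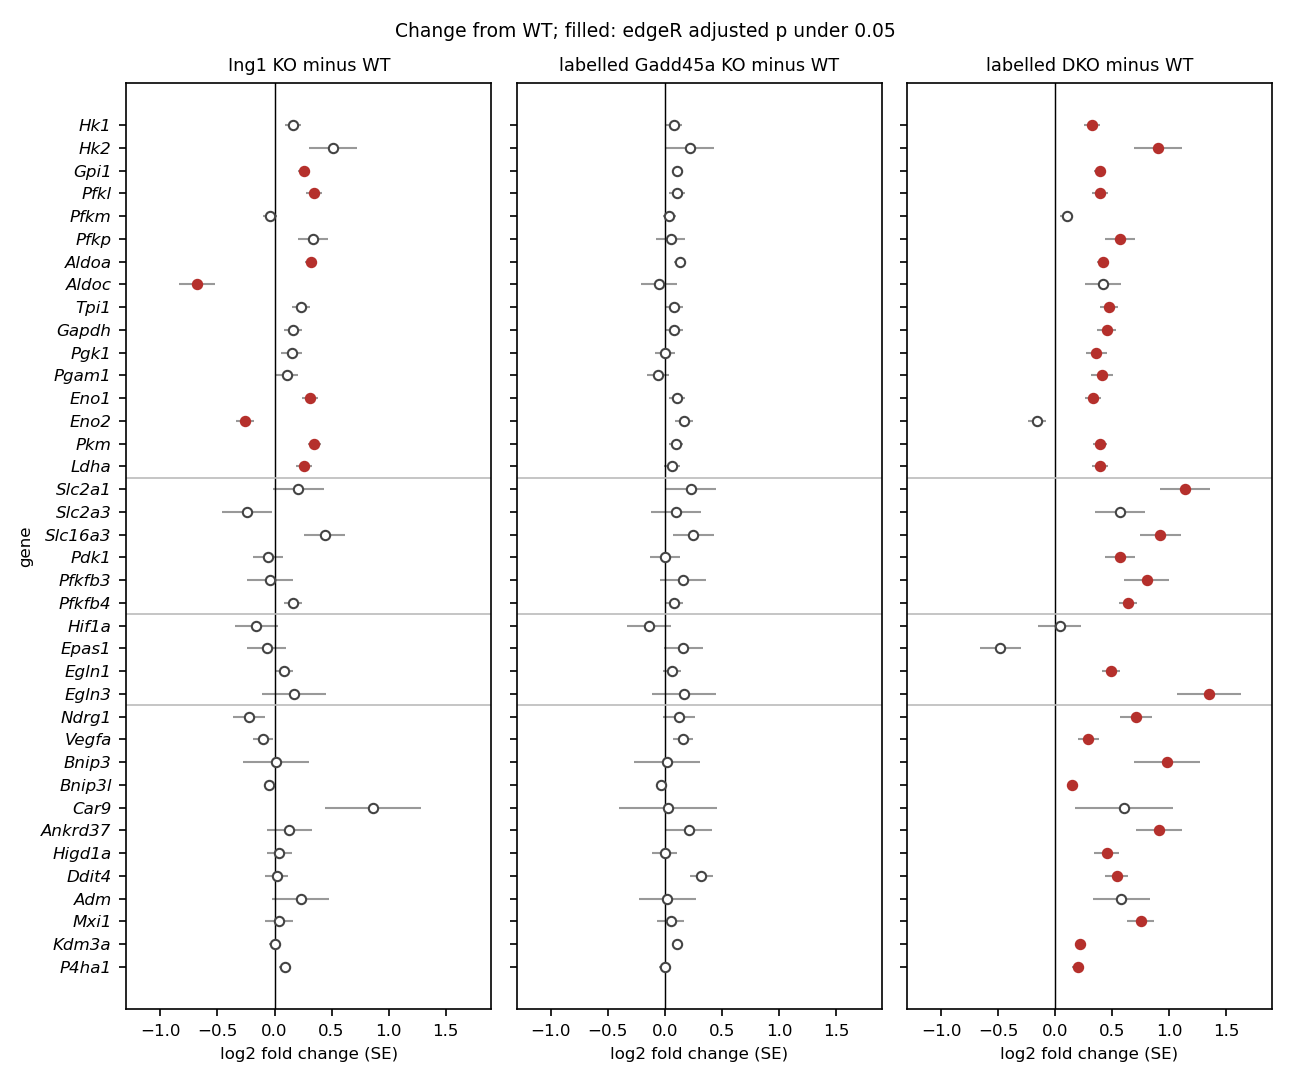
Log2 fold change from the WT with its standard error for each of the 38 genes in Ing1 KO, the labelled Gadd45a KO and the labelled DKO; filled points have an edgeR adjusted p under 0.05. Filled points are 8 of 38 in Ing1 KO, 0 in the labelled Gadd45a KO and 30 in the labelled DKO, where all 30 lie to the right of 0. Of all tested genes 23.5%, 0.00662% and 25.9% were called in these comparisons, in the same order.

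The listed genes of the oxygen-sensing pathway split by role in the labelled DKO. Hif1a, which encodes the main oxygen-regulated subunit, had 412, 419 and 383 CPM beside 356, 359 and 465 CPM in the WT, with overlap (log2 fold change 0.04 ± 0.19, interval -0.38 to 0.46, edgeR adjusted p = 0.904). Epas1, its relative known from vessels, stood at 14.6 ± 1.9 beside 20.3 ± 4.2 CPM (log2 fold change -0.48 ± 0.18, edgeR adjusted p = 0.0715). Both listed hydroxylase genes, which are HIF targets themselves, rose. Egln1 had 148, 141 and 138 CPM beside 95, 105 and 105 CPM in the WT, without overlap (1.4-fold, edgeR adjusted p = 0.00139). Egln3 (ENSMUSG00000035105) had 155, 120 and 131 CPM beside 38.4, 57.2 and 63.9 CPM, also without overlap, and its 2.55-fold rise was the largest of the 38 genes (log2 fold change 1.35 ± 0.28, edgeR adjusted p = 0.00764). Per kilobase, the share of Egln3 in the summed level of Egln1 and Egln3 was 56.1% ± 2.5 in the labelled DKO. In the WT it was 40.9% ± 5.1. Egln2, a gene of the same family outside the 38, stood at 45.4 ± 1 CPM in the labelled DKO and 46.3 ± 6.4 in the WT. It had 53.9 ± 2.2 CPM in Ing1 KO and 54.6 ± 2.6 in the labelled Gadd45a knockout (SD, n = 3). Its interaction was -0.49 ± 0.11 on the log2 scale (SE, edgeR adjusted p = 0.0118).

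HIF targets outside glycolysis rose across their functions. Mxi1, which encodes an antagonist of MYC, had 61.5, 60.5 and 62.3 CPM beside 31.8, 38.4 and 39.4 CPM in the WT, with closely spaced labelled DKO libraries and no overlap (1.68-fold, log2 fold change 0.75 ± 0.12, edgeR adjusted p = 0.00158). Ddit4 had 269, 253 and 250 CPM, above the WT in every library (1.45-fold, edgeR adjusted p = 0.00324). Ndrg1, a gene of the response to stress and differentiation, had 135, 102 and 109 CPM beside 64.6, 66.6 and 79.5 CPM (1.64-fold, edgeR adjusted p = 0.00489). Ankrd37, which encodes a small ankyrin repeat protein, had 20.3, 16.8 and 17.2 CPM beside 7.35, 9.84 and 11.8 CPM (1.88-fold, edgeR adjusted p = 0.00707). In all 4 genes the groups did not overlap. Kdm3a, a histone demethylase gene, had 105, 103 and 103 CPM beside 83.7, 90.8 and 91.1 CPM (1.17-fold, edgeR adjusted p = 0.00805). Higd1a, a gene of mitochondrial respiration under low oxygen, had 58.7, 49.5 and 53.3 CPM beside 35.6, 40.9 and 41.6 CPM (1.37-fold, edgeR adjusted p = 0.0106).

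Bnip3 and Bnip3l, receptors that mark mitochondria for removal, rose by unequal amounts. Bnip3 had 225, 210 and 213 CPM beside 77.3, 117 and 133 CPM in the WT, where replicate 1 was far below the others, and rose 1.98-fold (0.98 ± 0.29 in log2, edgeR adjusted p = 0.0343). Bnip3l went from 118 ± 6.7 to 131 ± 1.2 CPM (1.11-fold, edgeR adjusted p = 0.0206). Vegfa, the vessel growth factor gene, rose 1.22-fold and P4ha1 1.15-fold. These 4 calls depended on single libraries. Bnip3 lost its call without WT replicate 1 (adjusted p = 0.103) or 2 (0.0766) or DKO replicate 1, 2 or 3 (edgeR adjusted p 0.0736 to 0.0924), and Bnip3l without WT replicate 1 (0.0828) or any DKO library (edgeR adjusted p 0.0526 to 0.0636). Vegfa lost it without WT replicate 1 (0.105) or 3 (0.0563) or DKO replicate 1 (0.115) or 2 (edgeR adjusted p = 0.0577), and P4ha1 without WT replicate 1 (0.0556) or DKO replicate 1 (edgeR adjusted p = 0.0663). Car9 and Adm were higher in all 3 labelled DKO libraries than in the WT but were not called (edgeR adjusted p = 0.349 and 0.13).

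**Figure D4:**
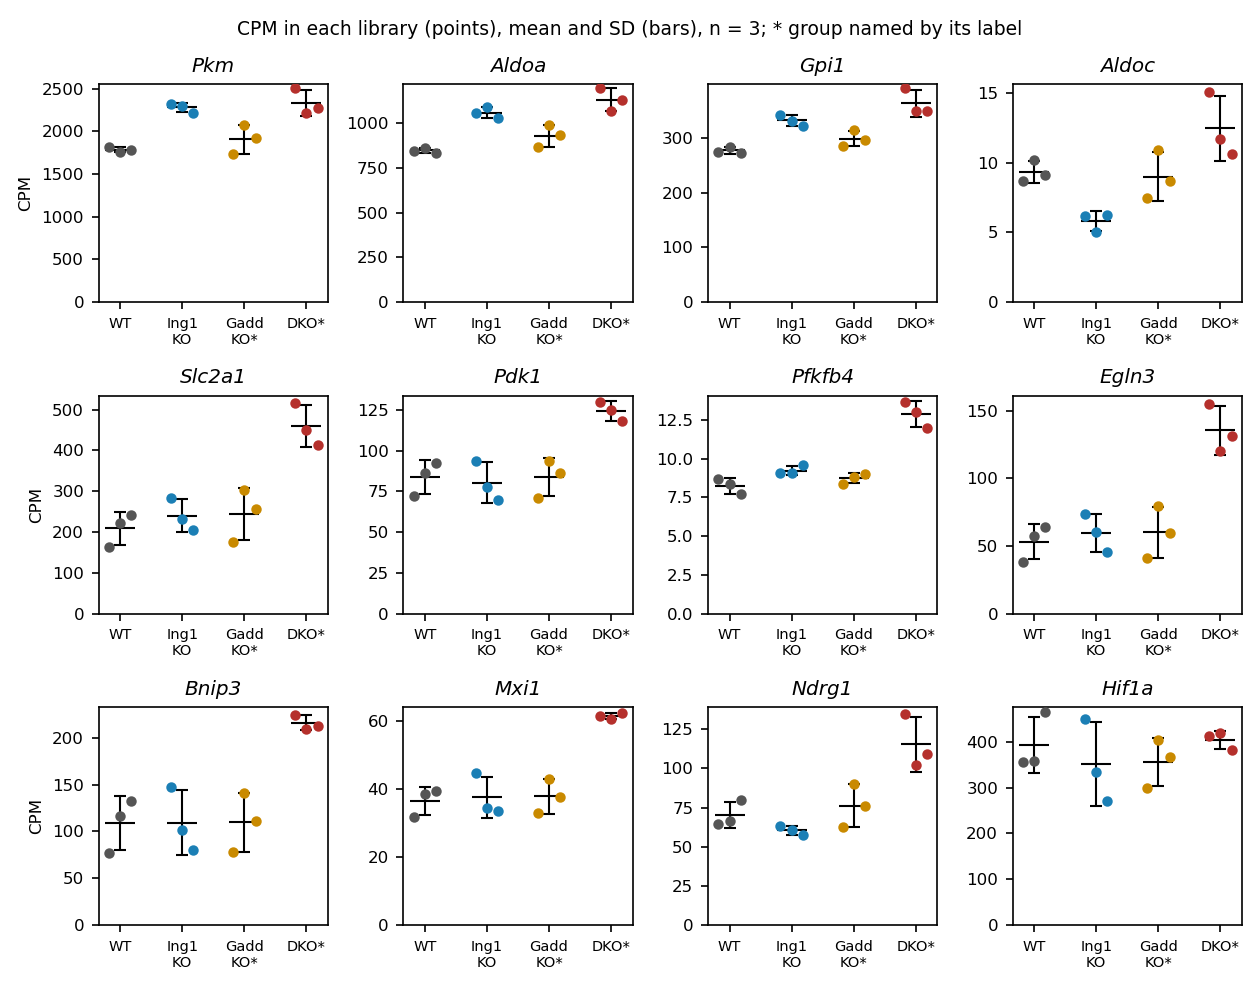
CPM in each library (points) with the mean and SD (bars, n = 3) for 12 of the genes across the 4 groups, with each axis starting at 0. Slc2a1, Pdk1, Pfkfb4, Egln3, Bnip3, Mxi1 and Ndrg1 have all 3 labelled DKO libraries above the other 9, Pkm and Aldoa are raised in Ing1 KO as well, and Hif1a overlaps in all groups.

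The labelled DKO was also compared with each single knockout. These comparisons share the labelled DKO libraries with the comparison above. Against Ing1 KO, 4 of 16 enzymes rose (Aldoc, Tpi1, Gapdh and Pgam1), while 5 of 6 transport and flux genes, 2 of 4 sensor genes and 9 of 12 HIF targets rose and none of the 38 fell, where 14.9% of all tested genes were called higher and 9.88% lower. The median log2 fold change was 0.15 for the enzymes and 0.4 for the HIF targets, beside 0.009 for all genes. Pkm, Eno1 and Pfkl stood within 0.05 of Ing1 KO on the log2 scale, with an interval of -0.1 to 0.17 for Pkm. Epas1, the lowest, had an unadjusted p of 0.0396, and DESeq2 called 1 hypoxia gene lower. The counts moved with single libraries. With all libraries 9 glycolysis and 11 hypoxia genes were called, with 3 and 6 left without Ing1 KO replicate 2 and 4 and 7 without DKO replicate 1. Without Ing1 KO replicate 3, 4 glycolysis genes were called. Tpi1 lost its call under 9 of the 12 alternatives and Pgam1 under 8.

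Against the labelled Gadd45a knockout, 28 of the 38 genes rose and 2 fell, where 15.8% of all tested genes were called higher and 10.6% lower, 26.4% in all. The 28 were 14 of 16 enzymes, 5 of 6 transport and flux genes, 2 of 4 sensor genes and 7 of 12 HIF targets. Eno2 fell 1.26-fold (edgeR adjusted p = 0.011) and Epas1 1.56-fold (edgeR adjusted p = 0.0218). Eno2 lost its call without Gadd45a KO replicate 1, and Epas1 without Gadd45a KO replicate 1 or DKO replicate 2 or 3 (edgeR adjusted p up to 0.0787). Of the 30 calls 10 were kept under all 12 alternatives. Without DKO replicate 1, 11 glycolysis genes were called in place of 20, and without Gadd45a KO replicate 1 the counts were 12 in place of 20 and 6 hypoxia genes in place of 10. With the libraries numbered 1 left out of all groups, 7 glycolysis genes were called.

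All 3 labelled DKO libraries lay above all other 9 for 22 of the 38 genes, where this held for 11.7% of all tested genes. These were 7 of 16 enzymes, 5 of 6 transport and flux genes, Egln1 and Egln3, and 8 of 12 HIF targets. Pkm, Aldoa, Pfkl and Eno1 were not among them, since their labelled DKO libraries overlapped with Ing1 KO.

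Whether the labelled DKO differed from the sum of both single knockouts was tested as an interaction. Of the 38 genes 6 stood above that sum and none below it, where 10.4% of all tested genes were called higher and 7.4% lower. Epas1 alone lay below that sum at an unadjusted p under 0.05 in edgeR, and DESeq2 called 4 glycolysis and 4 hypoxia genes, all above the sum. Among the enzymes only Aldoc was called, with an interaction of 1.15 ± 0.22 on the log2 scale (SE, edgeR adjusted p = 0.00685), and its labelled DKO level of 15.1, 11.7 and 10.6 CPM stood beside the low values in Ing1 KO given above and 7.45, 10.9 and 8.65 CPM in the labelled Gadd45a knockout. Of the flux genes Pdk1 (0.63 ± 0.19, edgeR adjusted p = 0.0435) and Pfkfb4 (0.4 ± 0.11, edgeR adjusted p = 0.0263) were called. Pdk1 had 72.4, 86.5 and 92.3 CPM in the WT, 93.9, 77.4 and 69.5 in Ing1 KO, 71.1, 93.8 and 86.5 in the labelled Gadd45a knockout and 130, 125 and 118 in the labelled DKO. The first 3 groups overlapped and the labelled DKO stood alone. Pfkfb4 had 9.05, 9.08 and 9.57 CPM in Ing1 KO and 8.39, 8.85 and 9.02 CPM in the labelled Gadd45a knockout, both close to the WT.

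Of the HIF targets Ndrg1, Mxi1 and Bnip3l were called. Ndrg1 had 62.9, 60.9 and 57.5 CPM in Ing1 KO, below the WT, and 62.5, 90 and 76.2 CPM in the labelled Gadd45a knockout (interaction 0.81 ± 0.2, edgeR adjusted p = 0.0243). Mxi1 had 44.5, 34.3 and 33.6 CPM in Ing1 KO and 32.8, 42.9 and 37.7 CPM in the labelled Gadd45a knockout, both across the WT range (0.67 ± 0.18, edgeR adjusted p = 0.0276). Bnip3l had 110, 119 and 124 CPM in the WT, 117, 112 and 111 in Ing1 KO, 115, 113 and 118 in the labelled Gadd45a knockout and 130, 130 and 132 in the labelled DKO (0.24 ± 0.06, edgeR adjusted p = 0.0228). Egln3 and Bnip3 had interactions of 1 ± 0.39 and 0.96 ± 0.4 that were not called (edgeR adjusted p = 0.112 and 0.135). The interaction of Aldoc was called under all 17 alternatives, and the other 5 lost their call under 4 to 11 of them. Bnip3l lost it without replicate 2 of the WT, Ing1 KO or Gadd45a KO, and Ndrg1 without WT replicate 2 or 3, Ing1 KO replicate 2 or Gadd45a KO replicate 3 (edgeR adjusted p up to 0.0632). Mxi1 lost it without WT replicate 2 or 3, Ing1 KO replicate 2, Gadd45a KO replicate 3 or any DKO library (edgeR adjusted p up to 0.0744). Pfkfb4 lost it without replicate 2 of any group or replicate 1 of the Gadd45a KO or DKO (edgeR adjusted p up to 0.0644). Pdk1 kept it without replicate 1 of the WT or Ing1 KO or Gadd45a KO replicate 2 and lost it without each other library (edgeR adjusted p up to 0.102). The count of glycolysis genes fell from 3 to 1 without WT replicate 2, Ing1 KO replicate 2, Gadd45a KO replicate 1 or DKO replicate 1 or 2. That of hypoxia genes was 0 without WT replicate 2 or Ing1 KO replicate 2, 1 without WT replicate 3 or Gadd45a KO replicate 3, and 5 without Ing1 KO replicate 1, beside 3 with all libraries.

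**Figure D5:**
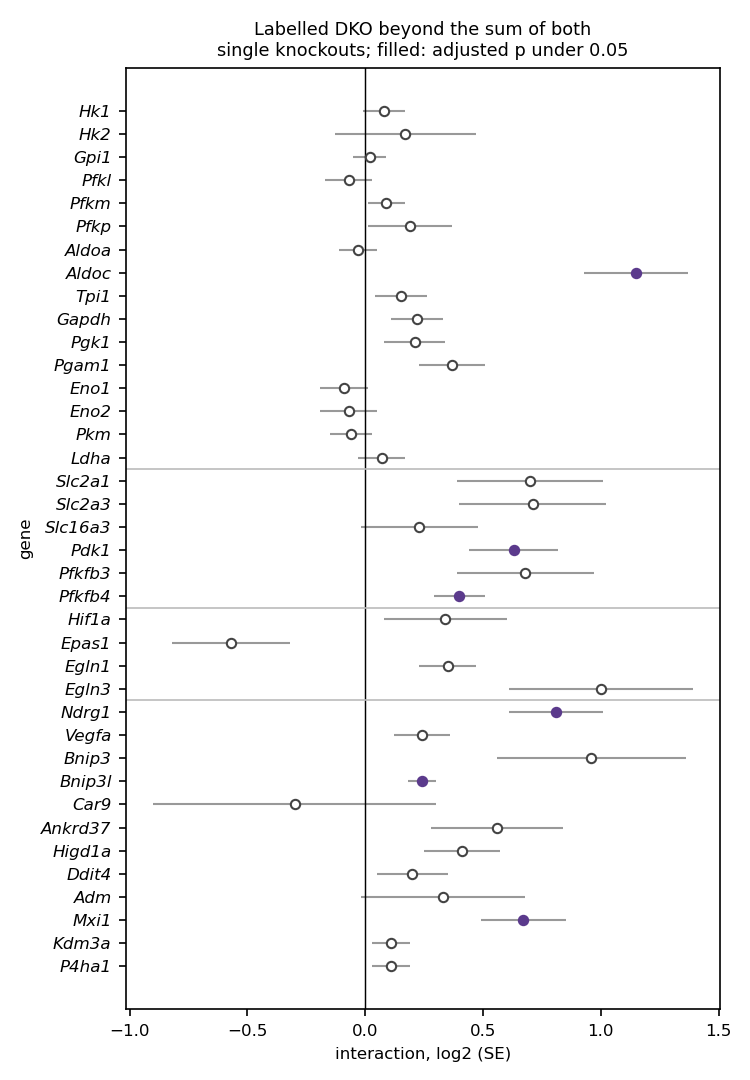
Interaction on the log2 scale with its standard error for each of the 38 genes, that is the change in the labelled DKO less the sum of the changes in both single knockouts, all against the WT; filled points have an edgeR adjusted p under 0.05. Filled are Aldoc, Pdk1, Pfkfb4, Ndrg1, Bnip3l and Mxi1, all to the right of 0, while the abundant enzymes Pkm, Aldoa and Gpi1 lie close to 0.

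Neighbouring pathways were counted from lists chosen with earlier results known. In the labelled DKO against the WT, 15.6% of all tested genes were called higher and 10.3% lower, and 19 of 41 further HIF targets rose and none fell (median 0.32), among them Hmox1, the heme oxygenase gene, at 143 ± 7.3 beside 85.6 ± 4.5 CPM (1.67-fold, edgeR adjusted p = 2.09e-05), and Plin2, a lipid droplet gene, at 167 ± 1.6 beside 118 ± 6.2 CPM. Of 19 other glycolysis and lactate genes 3 rose (15.8%, near the share of all genes). Hk3, a hexokinase known from blood cells, rose 6.56-fold, from 3.01 ± 0.95 to 19.8 ± 3.2 CPM, and Bsg, the partner of lactate transporters, rose 1.2-fold. Of 10 genes of the pentose phosphate pathway 4 rose, with Pgd at 167 ± 8.6 beside 122 ± 3 CPM. Of 29 genes of pyruvate entry and the citrate cycle 6 rose and 3 fell, with a median of 0.05; both shares, 20.7% for those that rose, lay near those of all genes. Of 12 glycogen genes 1 rose, the synthase gene Gys1 (1.54-fold), and 2 fell. Of 15 further genes of the HIF machinery 3 rose, including Elob, and 4 fell, including Arnt2, a partner of HIF alpha subunits (18.3 ± 2.2 to 10.3 ± 0.88 CPM, edgeR adjusted p = 0.00454). The 8 regulators of glucose use from the MYC, MondoA and p53 pathways had a median of -0.03. Of 3 genes of gluconeogenesis G6pc3 rose 1.14-fold and Pcx fell 1.21-fold.

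The same lists were counted in Ing1 KO against the WT, where 12.1% of all tested genes were called higher and 11.4% lower. Of the 41 further HIF targets 6 rose and 3 fell (median 0.04), a share of 14.6% higher that is near that of all genes: Mif, a cytokine gene, rose 1.34-fold and Angptl4, which encodes an inhibitor of lipoprotein lipase, fell 2.18-fold (63.8 ± 11 to 29.3 ± 6.3 CPM, edgeR adjusted p = 0.00339). Of the 10 pentose phosphate genes 4 rose and 1 fell, with Pgd at 151 ± 3.4 CPM and Tkt 1.28-fold higher. Slc16a1, a monocarboxylate transporter gene, fell 1.37-fold (46.5 ± 2.3 to 33.8 ± 5.7 CPM, edgeR adjusted p = 0.029). Of the 8 regulators, Myc rose 1.4-fold and Txnip, an inhibitor of glucose uptake, fell 1.37-fold (283 ± 28 to 206 ± 16 CPM, edgeR adjusted p = 0.0016). Of the glycogen genes Stbd1 rose 1.79-fold and Ppp1r3c fell 1.77-fold, and of the citrate cycle genes Mdh2 rose 1.19-fold. Bhlhe41, a transcriptional repressor gene and HIF target, stood at 9.37 ± 0.78 CPM in Ing1 KO, 13.4 ± 2.1 in the WT, 12.5 ± 2.5 in the labelled Gadd45a knockout and 29.9 ± 5.4 in the labelled DKO (SD, n = 3), with an interaction of 1.77 ± 0.24 (SE, edgeR adjusted p = 0.0023).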

How the data were processed

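RNA of 12 fibroblast libraries (polyA selected, TruSeq RNA v2, per the labels' protocols) had been counted per Ensembl gene by the authors. The deposited values are raw counts. The submitters' processing notes name TopHat2 2.0.9, Bowtie2 2.1.0, HTSeq 0.5.4 and DESeq, with builds mm9 and NCBIM37. Gene totals ran from 31493168 to 42852059 per library, 23.89% to 24.91% of reads fell in no gene and 17.9% to 19.12% were not uniquely aligned; these lines were left out.

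The counts were fitted with edgeR 4.0.16 (R 4.3.3): TMM scaling, filterByExpr, robust quasi-likelihood tests in 1 model of 4 groups with 8 residual degrees of freedom, Benjamini-Hochberg adjustment over 15098 genes and a threshold of 0.05. The biological coefficient of variation was 8.17%. Intervals are 95% and come from the same fit. The chi-square per degree of freedom between libraries of a group was 5.27 to 31.3, where counting noise alone gives about 1. The interaction is the labelled DKO change less both single changes. Alternatives were RLE scaling, no filter, DESeq2 1.42.0, a replicate block, only the groups compared, and leaving out each library. The labels number the libraries but name no shared litter or day. Libraries were correlated by their deviations from the group means. Among the 6 pairs of groups, all 3 same-numbered correlations were over 0.1 only for the WT and labelled Gadd45a knockout (0.34, 0.11 and 0.13). The fit of these 2 groups with a block was added for that reason. WT replicate 2 with Gadd45a KO replicate 3 gave 0.11, and WT replicate 3 with Gadd45a KO replicate 2 gave 0.13. A pairing by number is therefore not shown. The test was run on simulated data first.

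Members and lists were chosen with earlier results of these data known. Values per library are given for the called members with the smallest adjusted p, at most 8 per comparison and part, and up to 2 called genes are named from each other list. Values per library of Slc2a1, Bnip3, Hif1a, Egln3, Hk2, Car9 and Adm, and the levels of Bhlhe41 and Egln2, were added after they were seen. Promoters are from RefSeq GRCm38.p6.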

Additional observations from a re-analysis of the deposited data

Results flagged for a closer look

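The interaction, that is the difference between the effect of the Ing1 label with and without the Gadd45a label, was called for 6 of the 38 genes by edgeR. It was 1.15 ± 0.22 (SE) on the log2 scale for Aldoc (edgeR adjusted p = 0.00685), 0.81 ± 0.2 for Ndrg1 (0.0243), 0.67 ± 0.18 for Mxi1 (0.0276), 0.63 ± 0.19 for Pdk1 (0.0435), 0.4 ± 0.11 for Pfkfb4 (0.0263) and 0.24 ± 0.06 for Bnip3l (0.0228). All 6 were positive, and each compares 3 libraries in each of 4 groups. The 6 are 15.8% of the 38 genes, beside 17.8% of all tested genes called in either direction.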

How the results depend on the processing

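No direction of a called gene reversed under any alternative. Of the called genes, 23 of 30 (labelled DKO against the WT), 5 of 8 (Ing1 KO against the WT), 9 of 20 (DKO against Ing1 KO), 10 of 30 (DKO against the labelled Gadd45a KO) and 1 of 6 (interaction) kept their call under all alternatives run. Without the filter on low counts the interaction was called for 1 glycolysis and 0 hypoxia genes. Gadd45a KO against the WT gave 27 genes in DESeq2 and 0 with only the groups compared, in place of 1. With the libraries numbered 1 left out, chosen after seeing the data, the counts were 2381 genes for DKO against the WT, 2152 genes and 7 glycolysis genes for DKO against Gadd45a KO, and 5 glycolysis and 8 hypoxia genes for the interaction. The cause was not tested.

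Leaving out 1 library at a time gave, for all genes, glycolysis and hypoxia genes, 2754 to 3536, 16 to 19 and 8 to 12 (DKO against WT); 1858 to 3548, 5 to 10 and 0 to 0 (Ing1 KO against WT); 1 to 13, 0 to 0 and 0 to 0 (Gadd45a KO against WT); 2249 to 3676, 3 to 10 and 6 to 13 (DKO against Ing1 KO); 2679 to 3404, 11 to 21 and 6 to 11 (DKO against Gadd45a KO); and 1300 to 3285, 1 to 4 and 0 to 5 (interaction).

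Outside the WT and labelled Gadd45a knockout, 1 of 15 same-numbered pairs had a correlation over 0.1, and over all groups a library's best match had its own number in 13 of 36 tests. With the replicate block, the calls among glycolysis and hypoxia genes were 18 and 11 (DKO against WT), 8 and 0 (Ing1 KO against WT), 0 and 0 (Gadd45a KO against WT, with 1 gene called in all, and 13 where only these 2 groups were fitted with the block), 7 and 10 (DKO against Ing1 KO), 16 and 8 (DKO against Gadd45a KO), and 2 and 2 (interaction). Depth limits Pfkfb4, Car9 and Aldoc most, which had the lowest mean CPM in the WT.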
